A study of Caenorhabditis elegans with 35 samples.

Results

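Loss of dpy-21 was studied in 10 of the 35 libraries of the series, 5 of eak-7;akt-1 dpy-21 larvae, called triple mutants here, and 5 of eak-7;akt-1 larvae, called double mutants, as their labels give them. All were Caenorhabditis elegans with mutations in eak-7 and akt-1, collected whole at the L2 or L2d stage, and the triple mutants also carried a mutation in dpy-21. More than 200 gravid adults laid eggs for 6 h at 20 °C, the eggs were moved to 25 °C, which favours dauer arrest, and larvae were taken after 24 h. Larvae grown in the same way that were wild type, or carried a daf-16 mutation (daf-16;eak-7;akt-1) or a daf-12 mutation (eak-7;akt-1;daf-12) in place of that in dpy-21, are used for comparison. Double-mutant larvae that also lacked normal set-4, through allele n4600 or allele dp268, are compared only in X-linked and mitochondrial measures. Their libraries also entered the filter, the fit and the principal components. The labels name the mutated genes but no allele of eak-7, akt-1 or dpy-21. Each library is bulk RNA of a population of whole larvae, so that fewer cells of a type and less RNA per cell cannot be told apart.

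DPY-21 is a histone demethylase that converts dimethylated to monomethylated histone H4 and works with the dosage compensation complex, which lowers transcription from both X chromosomes of hermaphrodites. EAK-7 and the kinase AKT-1 act in the insulin-like pathway to oppose the transcription factor DAF-16/FoxO, and larvae that lack both tend to arrest as dauers, a long-lived larval form with a remodelled cuticle and metabolism. DAF-12 is a nuclear receptor that acts in the dauer decision. The comparison asks which transcripts changed when DPY-21 was removed from larvae in which this decision was biased towards dauer.

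The authors deposited a fragment count for each locus divided by a size factor of the library, here called scaled counts. Of 37555 loci, 1101 reached 5 scaled counts in 5 or more of the 35 libraries, the filter used here, and were tested. The libraries held 34193 to 88068 fragments in the triple mutants and 34838 to 67427 in the double mutants, which is shallow, and a locus listed at 0 is only a locus without a fragment at this depth. On the first principal component the 35 libraries fell into a larger group of 26 and a smaller group of 9, and the smaller group held replicates 6 and 9 of the triple mutants and replicates 6 and 10 of the double mutants. At 17 loci, spp-23 among them, every library of the larger group had at least 10 scaled counts and every library of the smaller group had at most 3 fragments. The mutated genes could not serve as a check of the labels, because dpy-21 was listed at 0 in all 10 libraries and eak-7 and akt-1 did not pass 3 fragments in any. Body wall muscle markers were present in each library, with a summed level of 64.1 to 90.2 scaled counts in the triple mutants and 61.4 to 94.8 in the double mutants. Intestinal markers summed to 39.0 to 52.9 in the triple mutants and 45.5 to 60.9 in the double mutants. Neuronal markers summed to 42.9 to 147.9 in the triple mutants and 37.5 to 50.4 in the double mutants. The neuronal maximum, in triple-mutant replicate 10, held 93.7 scaled counts of flp-26, an FMRFamide-like peptide gene listed at 0 in the other 4 triple-mutant libraries. Without flp-26 the range in the triple mutants was 42.9 to 57.6. Sperm markers summed to at most 0.819 scaled counts in the triple mutants and 0.951 in the double mutants.

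Fold changes are on the log2(scaled count + 1) scale, which understates the change of low loci. Changes were called with limma on log2(scaled count + 1), where the fold change was 1.5 or more and the p adjusted over the 1101 loci (Benjamini-Hochberg) was below 0.05. Of the tested loci, 135 (12.3%) were called in the triple mutants versus the double mutants, 38 higher (3.45%) and 97 lower (8.81%). The median log2 fold change of all tested loci was -0.20, and it became 0.02 when libraries were rescaled by the median of ratios, a shift of 0.21. With this rescaling 58 loci were higher (5.27%) and 46 were lower (4.18%), so the excess of lower calls belonged to the deposited scale. All 38 loci called higher and 46 of the 97 called lower were called on both scales. The values of the 10 libraries did not overlap between the groups at 85 of the 135 called loci, 24 of them higher and 61 lower in the triple mutants. Calls were made from these same values, so the separation is no separate evidence, and its share over all tested loci was not counted. Within the 3 and 3 libraries of the larger group, 70 of the 135 were called again. More than 1 gene name was attached to 58 of the called loci, and their reads cannot be assigned to a single gene.

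X-linked transcripts were shifted upward in the triple mutants relative to autosomal ones. Of 127 tested X-linked loci, 86 (67.7%) had a log2 fold change above 0, against 28.7% of 872 autosomal loci. After rescaling these shares were 77.2% on X and 47.2% on the autosomes. The median log2 fold change was 0.35 on X and -0.25 on the autosomes. On the rescaled values these medians were 0.54 on X and -0.03 on the autosomes. The 5 autosomes had medians between -0.31 on chromosome III and -0.18 on chromosome I, so no autosome came near the X. On X 10 loci were called higher and 3 lower (7.87% and 2.36% of those tested), against 2.64% higher and 9.63% lower on the autosomes. After rescaling 16 were higher and 0 lower on X (12.6% and 0%), against 3.78% higher and 4.59% lower on the autosomes. Much of the excess of lower calls on the autosomes thus depended on the scale, while 40 of 84 lower calls there remained. These counts describe the chromosomes and were not tested against each other. Within the larger group of libraries the X median was 0.25 and the autosomal median -0.33.

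**Figure D1:**
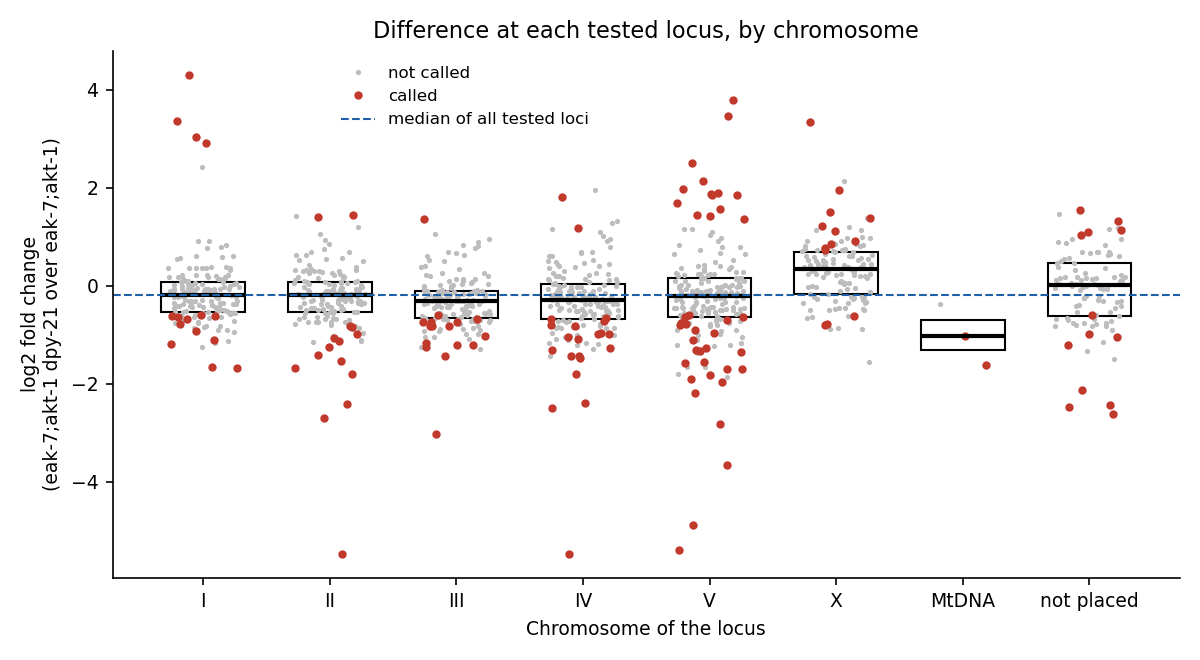
Log2 fold change of the triple mutants (eak-7;akt-1 dpy-21) over the double mutants (eak-7;akt-1) at each tested locus (vertical axis, log2(scaled count + 1) scale) by chromosome (horizontal axis), with called loci in red, boxes for the middle quartiles, bars for the median and a dashed line at the median of all tested loci. The X chromosome has a median of 0.35, while the medians of chromosomes I to V lie between -0.31 and -0.18 and that of the mitochondrial genome at -1.01.

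The share of all fragments that came from the X chromosome was 7.13%, 9.23%, 9.37%, 7.91% and 9.92% in replicates 6 to 10 of the triple mutants, and 6.51%, 6.34%, 7.03%, 7.24% and 6.97% in the double mutants. Replicate 6 of the triple mutants lay below replicate 9 of the double mutants, and the other 4 lay above all 5. Means were 8.71% ± 1.15 in the triple mutants and 6.82% ± 0.375 in the double mutants (SD, n = 5 each), a ratio of 1.28 (exact two-sided permutation test of the 5 and 5 libraries, p = 0.0159, adjusted p = 0.0159 over 3 of the 4 shares tested in this way). Replicates 6 and 9 of the triple mutants, which belong to the smaller group of libraries, had the lowest shares of their genotype. Within the larger group the means were 9.51% in the triple mutants and 6.87% in the double mutants, a ratio of 1.38, where 3 against 3 libraries cannot give a permutation p below 0.1. In the same eak-7;akt-1 background, mutants of set-4, whose product methylates histone H4, had shares of 6.69% to 8.05% with allele n4600 and 7.23% to 8.26% with allele dp268. It was 5.79% to 6.49% in daf-16;eak-7;akt-1, 4.49% to 6.71% in eak-7;akt-1;daf-12 and 3.90% to 5.91% in wild type. The 3 highest shares of all 35 libraries were those of triple-mutant replicates 7, 8 and 10. The share left out of the adjustment was that of the tested X-linked loci alone. Its means were 7.52% in the triple mutants and 6.06% in the double mutants, a ratio of 1.24 (exact permutation test, unadjusted p = 0.0317).

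The share of fragments from X-linked loci under the filter was also higher in the triple mutants. The share from autosomal loci under the filter was not measured, so whether this rise was particular to X was not tested. The 5180 X-linked loci under the filter, of which 1421 had a fragment in some library, gave 1.04%, 1.04%, 1.03%, 1.21% and 1.62% of fragments in the triple mutants, and 0.827%, 0.568%, 0.646%, 0.940% and 0.797% in the double mutants. The groups did not overlap, and every library of the triple mutants was above the highest of the other 30 libraries of the series, which had 0.959%. The ratio of the means was 1.57 (exact permutation p = 0.00794, the smallest 5 against 5 libraries can give, adjusted p = 0.0119). Replicate 10 of the triple mutants, their deepest library, held 1424 of these fragments, against 415 to 668 in their other libraries. A locus under the filter can still be high in fewer than 5 libraries, and the part of single loci in these shares was not measured. A second measure took, for each library, the deviation of every tested locus from the double-mutant mean on the log2 scale, and the median over X-linked loci minus that over autosomal loci. It restates the fold changes above by library, and the double mutants lie near 0 by construction. It was 0.362, 0.708, 0.808, 0.477 and 0.750 in the triple mutants, 0.058 to 0.561 with set-4 allele n4600 and 0.209 to 0.610 with dp268, so the set-4 mutants overlapped the triple mutants.

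**Figure D2:**
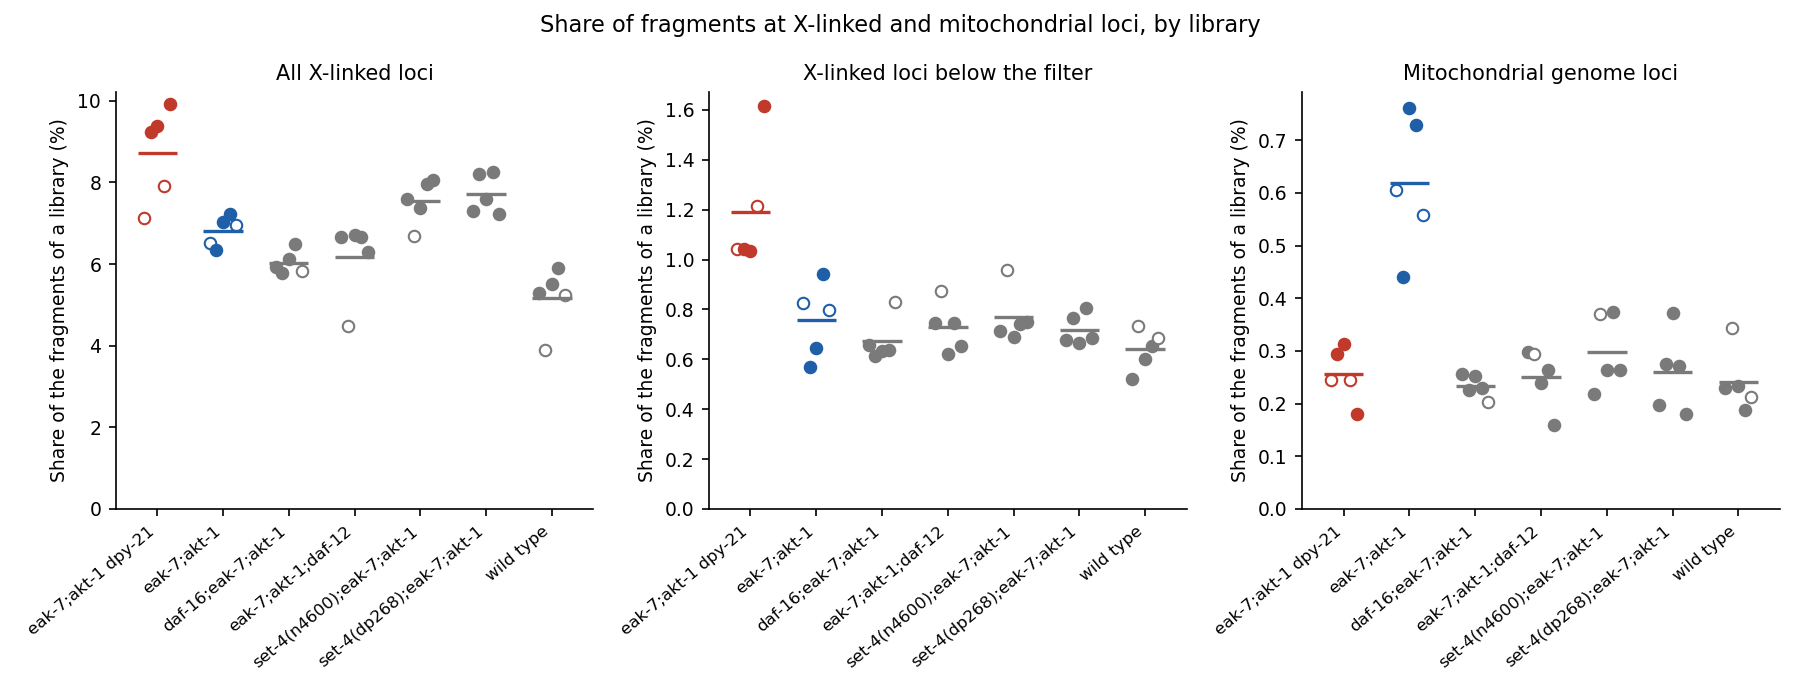
Share of the fragments of a library (vertical axes, percent) at all X-linked loci, at X-linked loci below the filter and at loci of the mitochondrial genome, by genotype (horizontal axes), with a point for each library, open for the smaller group on the first principal component, and a bar for the mean of 5. For all X-linked loci the triple mutants (eak-7;akt-1 dpy-21) span 7.13% to 9.92% and the double mutants (eak-7;akt-1) 6.34% to 7.24%, and for the mitochondrial genome the triple mutants span 0.179% to 0.314% and the double mutants 0.440% to 0.762%.

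The X-linked locus with the largest rise was B0310.6, a protein-coding gene on the minus strand of chromosome X, positions 530551 to 531009 (WBcel235). It had 41.8, 40.7, 38.5, 33.1 and 37.5 scaled counts in the triple mutants and 2.85, 3.25, 3.48, 1.9 and 2.96 in the double mutants. The 5 libraries of the triple mutants lay close together, while no library of the double mutants had more than 3 fragments (log2 fold change 3.35, standard error 0.305, adjusted p = 2.72e-09, limma). The rise was at least 11.4-fold, taking 3 fragments per library as the floor of the double mutants. Wild type had a mean of 63.6 ± 12 scaled counts, above both groups.

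Among the X-linked loci with more fragments, T23F2.3/T23F2.4 had 67.1, 64.9, 80.3, 74.7 and 66.9 scaled counts in the triple mutants and 44.2, 45.5, 49.9, 37.1 and 36.5 in the double mutants. The groups were far apart for their spread and did not overlap (log2 fold change 0.72, standard error 0.186, adjusted p = 0.00771). C49F5.11/linc-15, which contains a long intergenic non-coding RNA, had 64.9, 32, 37.7, 41.7 and 46.9 scaled counts in the triple mutants and 19.98, 22.7, 24.4, 29.5 and 21.7 in the double mutants, also without overlap (log2 fold change 0.86, adjusted p = 0.00804). C18A11.2 had 142, 100.4, 107, 129.9 and 116 scaled counts in the triple mutants and 101, 67.1, 80.01, 59.9 and 47.4 in the double mutants. Its groups met at one point, because triple-mutant replicate 7 was just below double-mutant replicate 6 (log2 fold change 0.77, adjusted p = 0.0107). C14F5.11/dct-1, which holds the gene of the mitophagy receptor DCT-1, had 5.5, 5.19, 4.1, 8.58 and 7.36 scaled counts in the triple mutants and 2.85, 1.08, 2.32, 1.9 and 1.98 in the double mutants. No library of the double mutants passed 3 fragments there, and the rise was at least 1.83-fold (log2 fold change 1.23, adjusted p = 0.00139).

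The remaining X-linked loci called higher were weaker. R03G5.6 (log2 fold change 1.12, adjusted p = 0.0127) and K09E9.4 (log2 fold change 0.91, adjusted p = 0.0108) overlapped between the groups, as did C49F8.3/F02C12.9 (log2 fold change 1.38, adjusted p = 0.0124) and T23E7.6 (log2 fold change 1.95, adjusted p = 0.0106). C15H9.9/Y72A10A.1 did not overlap (log2 fold change 1.502, adjusted p = 0.00515). C49F8.3/F02C12.9 missed the threshold without double-mutant replicate 7 (adjusted p = 0.0513). In the larger group of libraries only B0310.6, C15H9.9/Y72A10A.1 and R03G5.6 of the 10 were called. T23E7.6, C15H9.9/Y72A10A.1, C49F8.3/F02C12.9 and K09E9.4 were not called when only the 2 groups were fitted, and all 10 were called after rescaling.

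The 3 X-linked loci called lower were F08B12.4, F48D6.4 and got-1.2. F08B12.4 had 46.2, 43.3, 64.7, 53.9 and 58.9 scaled counts in the triple mutants and 94.2, 72.5, 92.8, 86.6 and 65.2 in the double mutants (log2 fold change -0.61, adjusted p = 0.0146), without overlap. F48D6.4 had 15.4, 6.93, 15.6, 11 and 15.4 scaled counts in the triple mutants and 25.7, 18.4, 24.4, 26.6 and 15.8 in the double mutants (log2 fold change -0.77, adjusted p = 0.0159), also without overlap. got-1.2, which encodes a glutamate-oxaloacetate transaminase, had 7.7, 6.06, 6.56, 18.4 and 4.02 scaled counts in the triple mutants and 14.3, 15.2, 10.4, 14.3 and 15.8 in the double mutants (log2 fold change -0.80, adjusted p = 0.0387), and replicate 9 of the triple mutants was higher than all libraries of the double mutants. None of the 3 was called with edgeR, with DESeq2 or after rescaling, where the adjusted p was 0.256 for F08B12.4, 0.142 for F48D6.4 and 0.169 for got-1.2. F48D6.4 was not called without triple-mutant replicate 7 (adjusted p = 0.0852) or double-mutant replicate 9 (adjusted p = 0.0513). F08B12.4 fell under the fold threshold without replicate 6 or 7 of the triple mutants or 6 or 8 of the double mutants, and got-1.2 was called only without replicate 9 of the triple mutants or 8 of the double mutants among the 10 fits that left out a library.

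**Figure D3:**
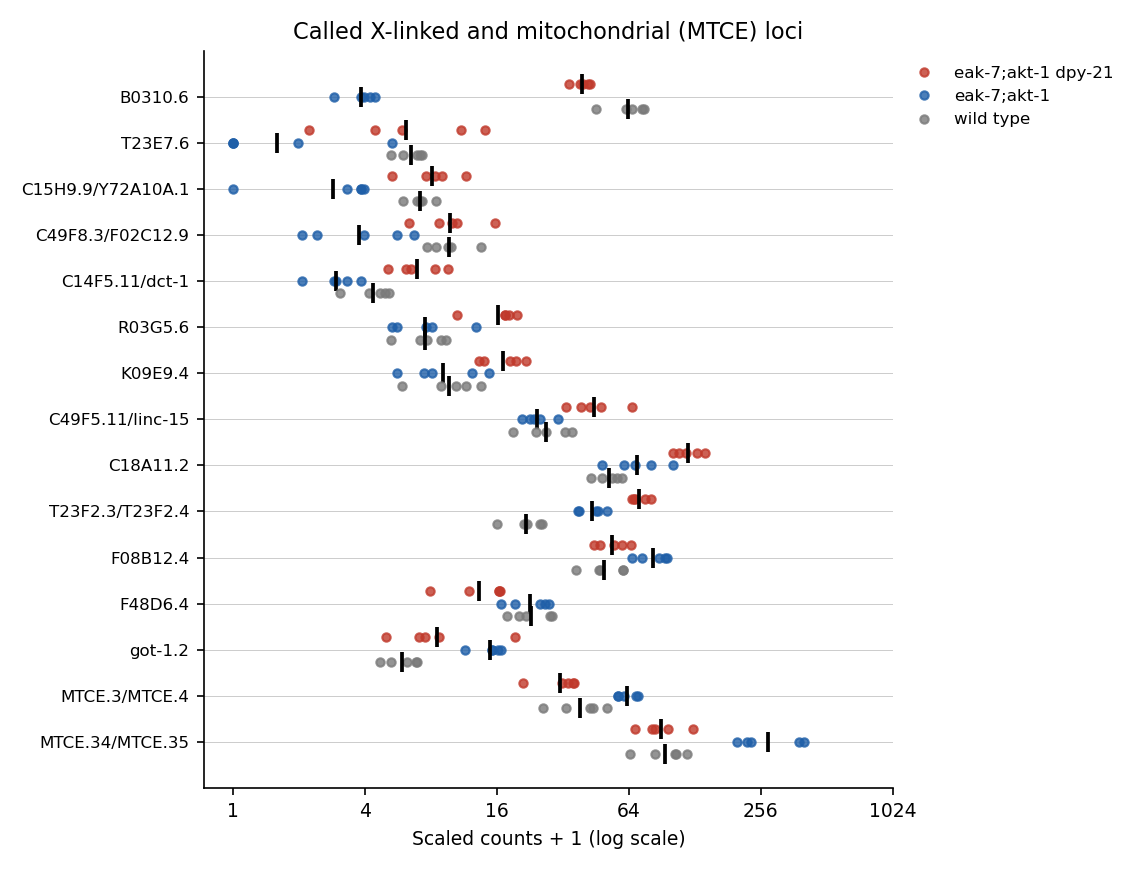
Scaled counts + 1 (horizontal axis, log scale) of the 13 called X-linked and 2 called mitochondrial loci (rows), with a point for each library of the triple mutants (eak-7;akt-1 dpy-21, red), the double mutants (eak-7;akt-1, blue) and wild type (grey) and a bar for the mean of the log values. B0310.6 has the widest gap of the X-linked loci, with 33.1 to 41.8 scaled counts in the triple mutants and 1.90 to 3.48 in the double mutants.

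Transcripts of the mitochondrial genome were lower in the triple mutants. Their share of all fragments was 0.246%, 0.294%, 0.314%, 0.246% and 0.179% in the triple mutants, and 0.606%, 0.440%, 0.762%, 0.730% and 0.559% in the double mutants. The groups did not overlap, and the means were 0.256% ± 0.0521 in the triple mutants and 0.619% ± 0.131 in the double mutants (SD, n = 5 each), so that the double mutants had 2.42 times the share (exact permutation p = 0.00794, adjusted p = 0.0119). Every other genotype of the series lay between 0.160% and 0.373%, so the libraries of the double mutants stood apart from all 6 other genotypes. Of the 3 tested mitochondrial loci, MTCE.34/MTCE.35 had 83.6, 96.1, 125, 67.4 and 80.3 scaled counts in the triple mutants and 231, 221, 380.3, 402 and 199 in the double mutants (log2 fold change -1.62, standard error 0.233, adjusted p = 8.27e-06). MTCE.3/MTCE.4 had 35.2, 34.6, 32.8, 30.6 and 20.1 scaled counts in the triple mutants and 59.9, 69.3, 68.4, 56.1 and 56.3 in the double mutants (log2 fold change -1.01, standard error 0.167, adjusted p = 5.2e-05). Neither overlapped between the groups, and both were called after rescaling and in the larger group. MTCE.26/MTCE.27 had 8.8, 2.6, 8.19, 0 and 4.69 scaled counts in the triple mutants and 2.85, 6.49, 9.28, 4.76 and 2.96 in the double mutants, with overlapping values (log2 fold change -0.38, adjusted p = 0.80).

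The 12 rises and 12 falls described next are the largest among called loci whose 5 same-numbered pairs shared a direction. That choice favours groups that do not overlap, so their separation is no separate evidence. It left out 5 called loci of larger change whose groups overlapped, ZK863.10 (log2 fold change -4.88), C56A3.14 (log2 fold change -2.81), Y102A5C.35/Y102A5C.36 (log2 fold change 2.13), T23E7.6 (log2 fold change 1.95) and H23N18.5/H23N18.6 (log2 fold change 1.90). The largest rises outside the X chromosome came from pairs of neighbouring genes. R12E2.14 lies on the plus strand of chromosome I, positions 4149981 to 4150638, and had 50.6, 66.7, 57.4, 89.4 and 85.7 scaled counts in the triple mutants and 1.43, 6.49, 2.32, 1.9 and 1.98 in the double mutants (log2 fold change 4.31, standard error 0.521, adjusted p = 5.49e-07). Its neighbour R12E2.15, on the minus strand of chromosome I, positions 4148832 to 4149415, had 26.4, 17.3, 11.5, 22.1 and 20.1 scaled counts in the triple mutants and 0, 1.08, 1.16, 1.9 and 0.988 in the double mutants. The rise of R12E2.15 was at least 5.79-fold (log2 fold change 3.37, adjusted p = 4.76e-06). On chromosome V the neighbours C02E7.6 and C02E7.7 rose together. C02E7.6, on the plus strand of chromosome V, positions 4919207 to 4919591, had 108, 97.8, 77.8, 100.5 and 120.5 scaled counts in the triple mutants and 4.28, 15.2, 3.48, 6.66 and 5.93 in the double mutants (log2 fold change 3.80, standard error 0.351, adjusted p = 2.72e-09). C02E7.7, on the minus strand of chromosome V, positions 4918136 to 4918574, had 25.3, 51.9, 27, 49 and 53.6 scaled counts in the triple mutants and 2.85, 5.41, 0, 5.71 and 2.96 in the double mutants (log2 fold change 3.46, adjusted p = 1.2e-05). None of these 4 protein-coding genes overlapped between the groups. Wild type had means of 211 scaled counts for R12E2.14, 52.6 for R12E2.15, 236 for C02E7.6 and 59.2 for C02E7.7, above both mutants at each gene.

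dpy-5 encodes a cuticle collagen that is needed for normal body length. It had 30.8, 7.79, 11.5, 19.6 and 20.1 scaled counts in the triple mutants and 0, 1.08, 2.32, 0.951 and 1.98 in the double mutants, with no library of the double mutants above 3 fragments, and rose at least 5.34-fold (log2 fold change 3.04, standard error 0.439, adjusted p = 8.41e-06). T26H5.9/srh-239, which holds a gene of the serpentine chemoreceptor family, had 92.5, 77.9, 77, 109 and 75 scaled counts in the triple mutants and 34.3, 36.8, 13.9, 10.5 and 20.7 in the double mutants, without overlap (log2 fold change 1.98, standard error 0.45, adjusted p = 0.00233). The locus of sel-9, which encodes a p24 cargo protein of the secretory pathway and shares the locus with 4 other names, had 71.5, 31.2, 32.8, 44.1 and 30.1 scaled counts in the triple mutants and 7.14, 10.8, 8.12, 16.2 and 10.9 in the double mutants (log2 fold change 1.85, standard error 0.296, adjusted p = 3.04e-05). Replicate 6 of the triple mutants was the highest there, and the lowest library of the triple mutants still lay above the highest of the double mutants.

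Y48G8AL.12/Y48G8AL.16 had 39.6, 25.1, 14.7, 13.5 and 26.1 scaled counts in the triple mutants and 0, 2.16, 4.64, 2.85 and 2.96 in the double mutants (log2 fold change 2.91, adjusted p = 1.64e-05), against a wild-type mean of 131. Y47D7A.13 had 5.5, 7.79, 11.5, 11 and 5.36 scaled counts in the triple mutants and 0, 3.25, 1.16, 0 and 0 in the double mutants and rose at least 2.45-fold (log2 fold change 2.51, adjusted p = 1.96e-05). The other 2 of the 12 largest rises were fipr-4 and fipr-6, of the family related to fungus-induced peptides. fipr-4 had 4.4, 9.52, 12.3, 7.35 and 8.7 scaled counts in the triple mutants and 2.85, 2.16, 0, 0.951 and 2.96 in the double mutants, a rise of at least 2.51-fold (log2 fold change 1.87, adjusted p = 0.00602). fipr-6 had 3.3, 4.33, 3.28, 2.45 and 4.69 scaled counts in the triple mutants and 0, 2.16, 0, 0 and 0 in the double mutants, which is at most a few fragments in each library (log2 fold change 1.85, adjusted p = 0.00831). In the larger group of libraries fipr-6 was not called (log2 fold change 1.79, adjusted p = 0.0804), while the other 11 were.

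**Figure D4:**
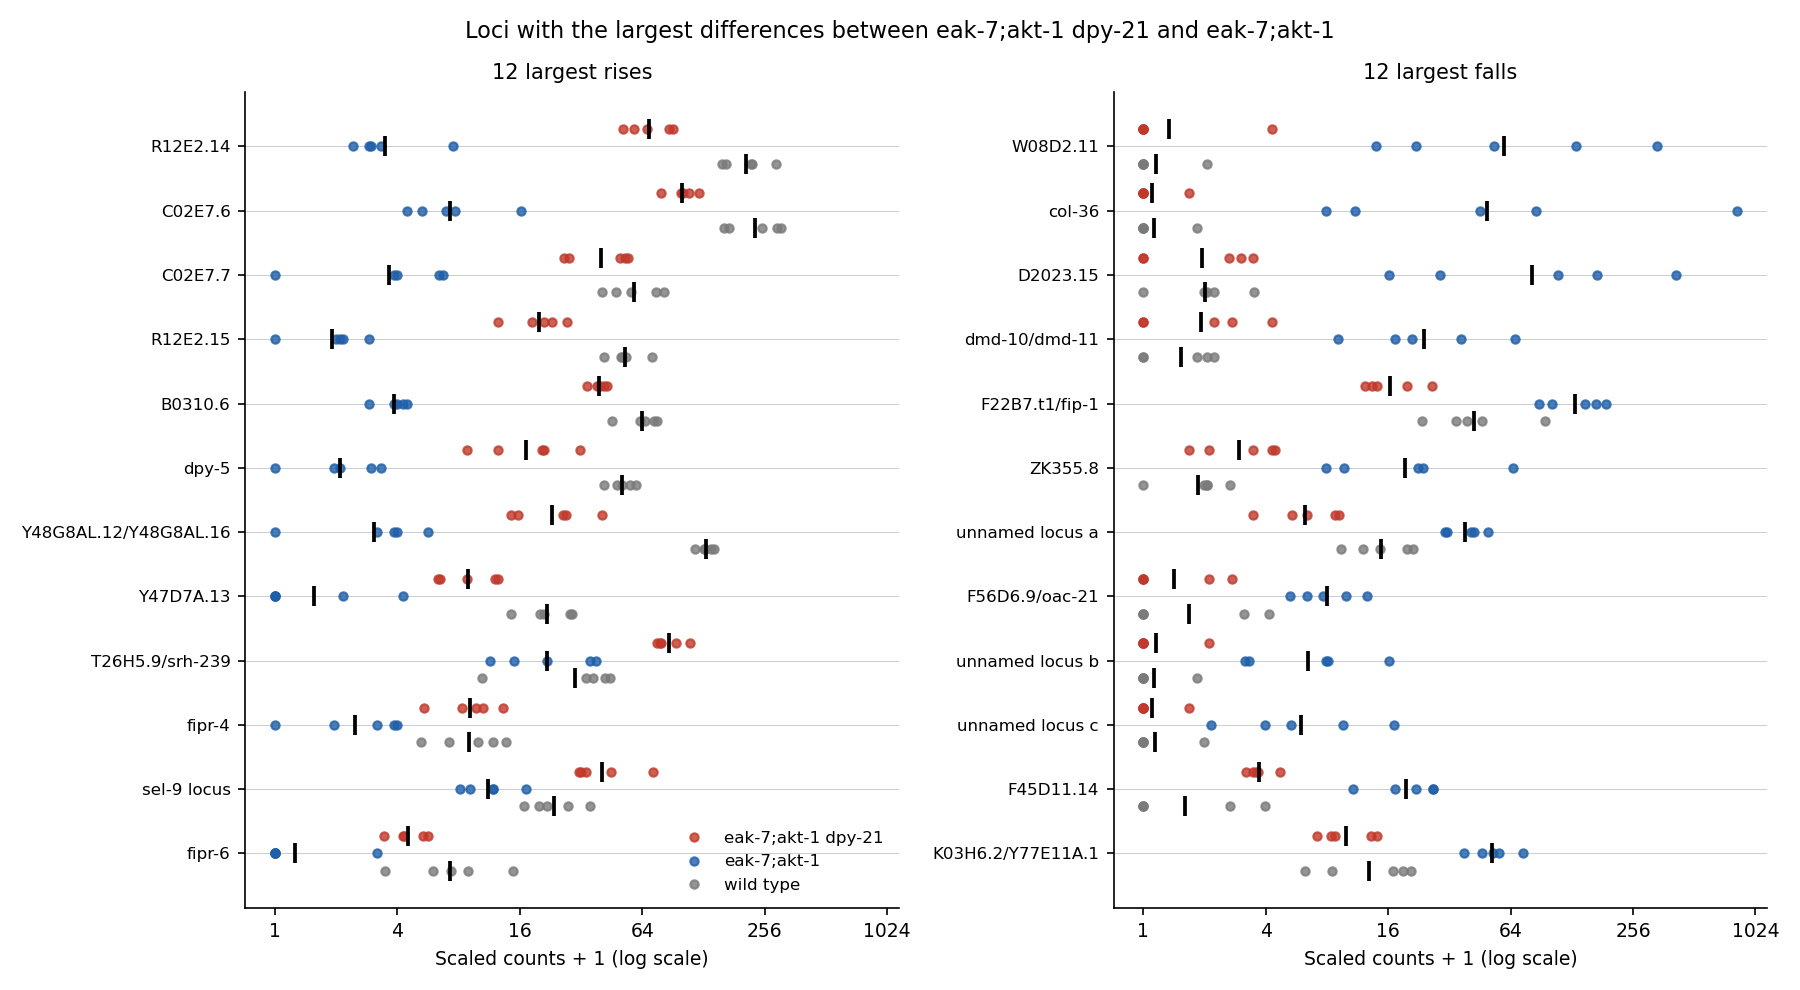
Scaled counts + 1 (horizontal axes, log scale) at the 12 largest rises (left) and the 12 largest falls (right), with a point for each library of the triple mutants (eak-7;akt-1 dpy-21, red), the double mutants (eak-7;akt-1, blue) and wild type (grey) and a bar for the mean of the log values. The loci were kept only where the 5 same-numbered pairs shared a direction, which favours groups that do not overlap. At W08D2.11, col-36 and D2023.15 the double mutants span more than 10-fold among themselves.

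The largest falls were at transcripts whose levels differed widely among the double-mutant libraries. col-36, a cuticle collagen gene on the minus strand of chromosome II, positions 7167511 to 7168812, had 0, 0, 0, 0 and 0.669 scaled counts in the triple mutants and 9.99, 44.4, 84.6, 833 and 6.91 in the double mutants. A single fragment was found in the 5 libraries of the triple mutants, so that the fall was at least 69.8-fold, and replicate 9 of the double mutants was far above the other 4 (log2 fold change -5.47, standard error 1.15, adjusted p = 0.00123). The non-coding RNAs W08D2.11 and D2023.15 had their 5 double-mutant libraries in the same order of level. W08D2.11 had 3.3, 0, 0, 0 and 0 scaled counts in the triple mutants and 133, 13, 20.9, 335 and 52.3 in the double mutants, at least 39.4-fold lower (log2 fold change -5.47, standard error 0.904, adjusted p = 5.2e-05). D2023.15 had 0, 0, 1.64, 2.45 and 2.01 scaled counts in the triple mutants and 169.8, 15.2, 27.8, 417 and 109 in the double mutants, at least 52.6-fold lower (log2 fold change -5.40, standard error 0.835, adjusted p = 2.14e-05). dmd-10/dmd-11, a pair of genes for DM-domain transcription factors, had 0, 1.73, 3.28, 1.23 and 0 scaled counts in the triple mutants and 19.98, 16.2, 8.12, 66.6 and 35.6 in the double mutants (log2 fold change -3.65, standard error 0.499, adjusted p = 4.76e-06). In all 4, replicate 9 of the double mutants was the highest and no library of the triple mutants reached the lowest of the double mutants. Without that replicate the bounds fell to at least 13-fold for col-36, 19.5-fold for W08D2.11 and 28.6-fold for D2023.15. At all 4 loci every double-mutant library reached the 5 scaled counts of the filter and no triple-mutant library did. The double mutants, where these loci were high, were enough to pass the filter, so the separation is no separate evidence. Wild type had means of 0.167 scaled counts for col-36, 0.21 for W08D2.11, 1.16 for D2023.15 and 0.626 for dmd-10.

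F22B7.t1/fip-1, which holds the gene of a fungus-induced peptide, was lower by a steady amount. It had 25.3, 11.3, 13.1, 12.3 and 18.7 scaled counts in the triple mutants and 147, 87.7, 101, 167 and 188 in the double mutants (log2 fold change -3.02, standard error 0.375, adjusted p = 7.96e-07), without overlap and with a wild-type mean of 46.5. K03H6.2/Y77E11A.1 had 12.1, 7.79, 13.1, 6.13 and 7.36 scaled counts in the triple mutants and 51.4, 36.8, 45.2, 72.3 and 55.3 in the double mutants (log2 fold change -2.39, adjusted p = 8.08e-06). F45D11.14 had 2.2, 2.6, 2.46, 3.68 and 2.68 scaled counts in the triple mutants and 25.7, 9.74, 16.2, 20.9 and 25.7 in the double mutants (log2 fold change -2.41, adjusted p = 2.59e-05). These 3 loci were called on both scales and in the larger group. ZK355.8 had 1.1, 3.46, 3.28, 2.45 and 0.669 scaled counts in the triple mutants and 21.4, 8.66, 6.96, 64.7 and 22.7 in the double mutants (log2 fold change -2.70, adjusted p = 0.00804), with replicate 9 of the double mutants again the highest, and was not called in the larger group (log2 fold change -2.44, adjusted p = 0.0651). F56D6.9/oac-21, which holds a gene of the O-acyltransferase family, had 1.1, 1.73, 0, 0 and 0 scaled counts in the triple mutants and 4.28, 5.41, 11.6, 6.66 and 8.89 in the double mutants and fell at least 2.62-fold (log2 fold change -2.49, adjusted p = 0.000133). The other 3 of the 12 were loci without a gene name. XLOC_007567 was at least 2.4-fold lower (log2 fold change -2.47, adjusted p = 8.96e-05) and XLOC_007568 at least 2.36-fold lower (log2 fold change -2.43, adjusted p = 0.0041), or at least 1.51-fold without double-mutant replicate 9. The second was not called in the larger group (adjusted p = 0.0752). The third had a log2 fold change of -2.61 (adjusted p = 1.99e-07).

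Genes of the cuticle moved in both directions. Of 13 tested loci with a cuticle collagen, dpy-5 and col-17 were called higher (15.4%) and col-36 lower (7.69%). The shares of all tested loci were 3.45% higher and 8.81% lower. Of the 13, 10 (76.9%) had an unadjusted p below 0.05, against 23.2% of all tested loci. The list's median log2 fold change was 0.94, beside -0.20 for all tested loci. col-17 had 2.2, 0, 0, 8.58 and 3.35 scaled counts in the triple mutants and 0, 0, 0, 0 and 0 in the double mutants, with no fragment in any library of the double mutants (log2 fold change 1.41, standard error 0.47, adjusted p = 0.0407). Its call was lost in 8 of the 10 fits that left out a library, for instance without triple-mutant replicate 9 (adjusted p = 0.177), and in the larger group (log2 fold change 0.71, adjusted p = 0.497). rol-6 had 1.1, 1.73, 0.819, 1.23 and 0.669 scaled counts in the triple mutants and 0, 0, 0, 0 and 0 in the double mutants, 1 or 2 fragments in each library of the triple mutants and none in the double mutants, and was not called (adjusted p = 0.101). The hypodermis makes the cuticle, and the summed level of its marker list was 3.3 to 5.5 scaled counts in the triple mutants and 0 to 5.9 in the double mutants. Of this list 2 loci were tested, rol-6 and the locus of sqt-3, and both are among the 13 collagen loci. The marker level is therefore not independent of the collagen values, and the part of the hypodermis in them was not tested.

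Defence peptides also split. Of 32 tested loci with innate defence effectors, 4 were called higher (12.5%) and 5 lower (15.6%), against 3.45% and 8.81% of all tested loci, and the median log2 fold change was -0.30, beside -0.20 for all tested loci. The higher loci were fipr-4, fipr-6, fipr-10 and nlp-25, and all 4 were called after rescaling. nlp-25, a gene for an antimicrobial-type neuropeptide-like protein, had 45.1, 36.4, 45.9, 29.4 and 46.2 scaled counts in the triple mutants and 14.3, 13, 10.4, 13.3 and 21.7 in the double mutants, without overlap (log2 fold change 1.44, standard error 0.279, adjusted p = 0.000445). fipr-10 had 7.7, 9.52, 7.37, 8.58 and 11.4 scaled counts in the triple mutants and 4.28, 0, 2.32, 6.66 and 0.988 in the double mutants, also without overlap (log2 fold change 1.68, adjusted p = 0.00793). It was not called in the larger group (adjusted p = 0.0537) or with only the 2 groups fitted (adjusted p = 0.0622). Among the lower loci, nlp-27/nlp-28 had 6.6, 9.52, 8.19, 7.35 and 6.69 scaled counts in the triple mutants and 27.1, 35.7, 34.8, 24.7 and 25.7 in the double mutants (log2 fold change -1.81, standard error 0.281, adjusted p = 2.14e-05). cnc-2, a caenacin gene, had 33, 6.93, 9.83, 9.8 and 9.37 scaled counts in the triple mutants and 49.95, 34.6, 33.6, 55.2 and 64.2 in the double mutants, where replicate 6 of the triple mutants nearly reached the lowest library of the double mutants (log2 fold change -1.89, standard error 0.385, adjusted p = 0.000818). In this way nlp-25 and nlp-27/nlp-28, whose products belong to the same family, moved in opposite directions. cnc-7 was lower (log2 fold change -1.69, adjusted p = 0.0292) but not called after rescaling (adjusted p = 0.0566), with edgeR (adjusted p = 0.0676), in the larger group (adjusted p = 0.189) or without 1 of 5 libraries, triple-mutant replicates 7, 8 and 9 and double-mutant replicates 6 and 7 (adjusted p 0.0570 to 0.104). cnc-9/gst-41 was lower (log2 fold change -2.19, adjusted p = 0.0152), and not called without double-mutant replicate 9 (adjusted p = 0.0794), with only the 2 groups fitted (adjusted p = 0.0681) or in the larger group (log2 fold change -1.71, adjusted p = 0.206). Fungus-induced fip-1, described above, completes the 5.

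Of 12 tested neuropeptide-like loci, nlp-25 was higher (8.33%), nlp-27/nlp-28 and nlp-36 were lower (16.7%) and 9 were not called. Of all tested loci 3.45% were higher and 8.81% lower. The median log2 fold change was -0.61, beside -0.20 for all tested loci. nlp-36 had 303, 266, 320.4, 326 and 311 scaled counts in the triple mutants and 462, 542, 522, 451 and 457 in the double mutants (log2 fold change -0.67, standard error 0.0985, adjusted p = 1.06e-05). Its groups did not overlap, and after rescaling the fall by 0.40 on the log2 scale was under the fold threshold. T19C4.1/nlp-33 had 365, 281, 328, 298 and 345 scaled counts in the triple mutants and 258, 227, 244, 225 and 246 in the double mutants, without overlap, at a log2 fold change of 0.43 that was under 1.5-fold (adjusted p = 0.0242). After rescaling it was 0.70 and was called higher.

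Loci that hold redox genes were lower as far as they were called. Of 8 tested loci with redox and glutathione genes 4 were lower (50%) and 0 higher, against 8.81% lower and 3.45% higher of all tested loci. All 8 had a negative log2 fold change, as did 64.9% of all tested loci, and the median was -0.60. Each of the 8 also carries other gene names, so its reads cannot be assigned to the redox gene. F43E2.11/F43E2.6/msra-1, with the gene of a methionine sulfoxide reductase, had 16.5, 15.6, 16.4, 19.6 and 17.4 scaled counts in the triple mutants and 64.2, 61.7, 66.1, 53.3 and 63.2 in the double mutants (log2 fold change -1.79, standard error 0.253, adjusted p = 7.14e-06). The locus of sod-1, the cytosolic copper-zinc superoxide dismutase, which also carries art-1, ppp-1 and tra-2 among others, had 15.4, 18.2, 22.9, 12.3 and 18.1 scaled counts in the triple mutants and 48.5, 35.7, 42.9, 42.8 and 39.5 in the double mutants (log2 fold change -1.24, standard error 0.198, adjusted p = 3.04e-05). Neither locus overlapped between the groups, and both were called on both scales and in the larger group. The wild-type means were 28.1 for the msra-1 locus and 17.3 for the sod-1 locus. The other 2 were cnc-9/gst-41, also counted among the defence effectors, and figl-1/glrx-3/hpo-18, also counted in the respiratory chain list. The second of these joins a glutaredoxin with a subunit of the mitochondrial ATP synthase and had 102, 72.7, 94.2, 84.5 and 92.4 scaled counts in the triple mutants and 133, 159, 145, 139.9 and 121 in the double mutants (log2 fold change -0.64, adjusted p = 0.000259), and it was under the fold threshold after rescaling or without triple-mutant replicate 7.

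Nuclear genes of the respiratory chain were called lower at a share near that of all tested loci. Of 16 tested 2 were lower (12.5%, against 8.81% of all) and 0 higher, and the median log2 fold change was -0.56. The 2 were figl-1/glrx-3/hpo-18 and nduf-5, a gene of complex I, which had 19.8, 12.1, 18, 18.4 and 17.4 scaled counts in the triple mutants and 17.1, 27.1, 29, 32.3 and 28.6 in the double mutants with overlapping values (log2 fold change -0.60, adjusted p = 0.0149). Neither was called after rescaling, where the median was -0.32, and edgeR and DESeq2 on recovered fragments called 0. On the deposited scale 15 of the 16 (93.8%) had a negative log2 fold change, against 64.9% of all tested loci. An unadjusted p below 0.05 (limma) was found at 6 of them (37.5%), against 23.2% of all. nduf-5 was not called without triple-mutant replicate 7 (adjusted p = 0.0721) or double-mutant replicate 9 (adjusted p = 0.0555), and was under the fold threshold without double-mutant replicate 8 or 10. Of 21 tested loci with mitochondrial ribosomal or import proteins limma, edgeR and DESeq2 called 0 and 2 had an unadjusted p below 0.05. Among these F29B9.11/col-111/mrps-21 had 583, 412, 578, 545 and 571 scaled counts in the triple mutants and 865, 918, 741, 771 and 722 in the double mutants, without overlap, at a log2 fold change of -0.58 just under 1.5-fold (adjusted p = 0.000221).

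Few loci of cytosolic ribosomal proteins were called. Of 43 tested loci of the large subunit 0 were called by limma, edgeR or DESeq2, 2 had an unadjusted p below 0.05 and the median log2 fold change was -0.12. Of 27 loci of the small subunit only rps-9 was called, lower (3.70%, against 8.81% of all tested loci), and the median was -0.07. rps-9 had 2.2, 0, 0.819, 4.9 and 1.34 scaled counts in the triple mutants and 2.85, 4.33, 3.48, 7.61 and 3.95 in the double mutants (log2 fold change -1.12, adjusted p = 0.0405), and it missed the threshold in 6 of the 10 fits that left out a library, for instance without triple-mutant replicate 7 (adjusted p = 0.175). On recovered fragments edgeR and DESeq2 called 1 small subunit locus higher and 0 lower. Both medians turned positive after rescaling, at 0.15 for the large and 0.17 for the small subunit. Of 29 tested loci with chaperones, peptidyl-prolyl isomerases or proteasome subunits, 4 were lower (13.8%, against 8.81% of all tested loci) and 0 higher with a median of -0.41. Those 4 were fkb-2/fkb-8 (log2 fold change -0.77, adjusted p = 0.0123), the cyn-13 locus (log2 fold change -0.80, adjusted p = 0.00771), pas-6 (log2 fold change -0.64, adjusted p = 0.0474) and Y75B12B.3/cyn-7 (log2 fold change -0.91, adjusted p = 0.00771), of which only Y75B12B.3/cyn-7 was called after rescaling or with DESeq2 and none with edgeR. pas-6 missed the threshold in 7 of the 10 fits that left out a library, and fkb-2/fkb-8 without triple-mutant replicate 7 (adjusted p = 0.0520).

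**Figure D5:**
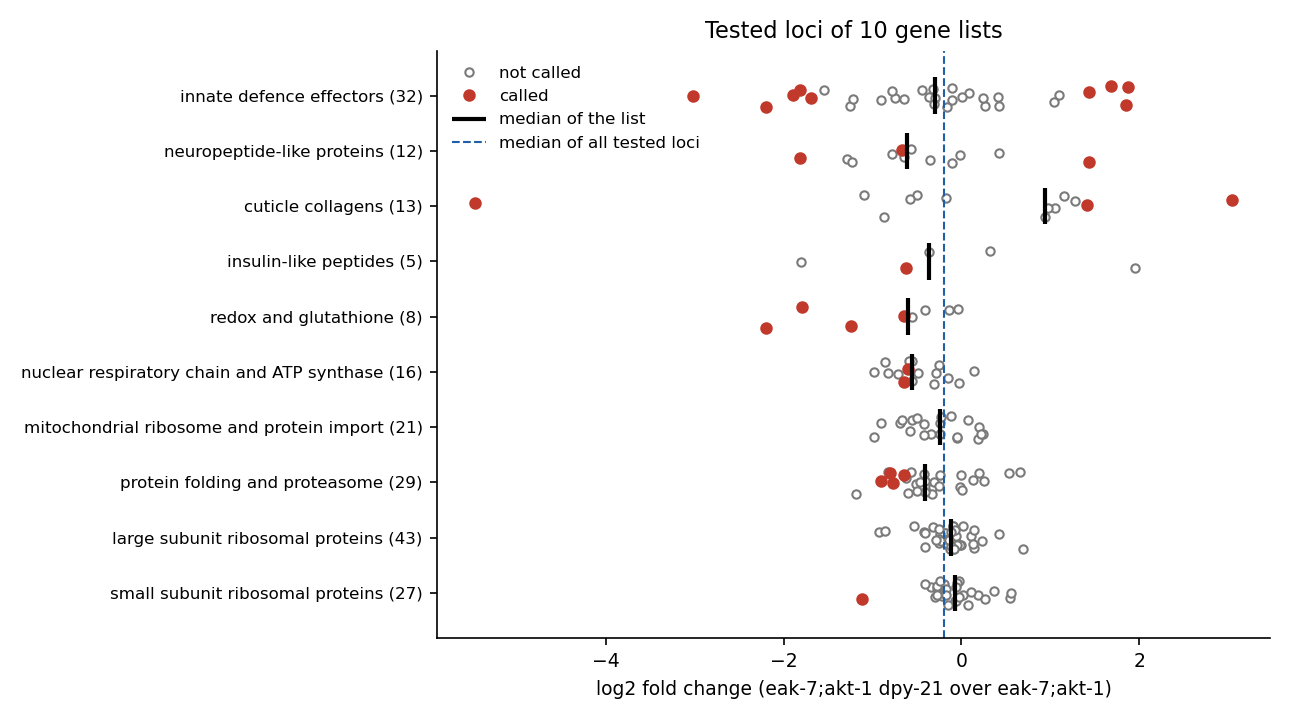
Log2 fold change of the triple mutants (eak-7;akt-1 dpy-21) over the double mutants (eak-7;akt-1) (horizontal axis, log2(scaled count + 1) scale) at the tested loci of 10 gene lists (rows, with the number tested), with called loci in red, a bar for each list's median and a dashed line at the median of all tested loci. The redox list has its 4 called loci on the lower side, the collagen list has called loci on both sides, and the large subunit ribosomal list, with a median of -0.12, has 0 called.

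Of the genes that govern the dauer decision few had enough fragments. Of 5 tested loci with insulin-like peptides 0 were called higher and 1 lower (20%, against 8.81% of all tested loci), ins-25/ins-27/ins-29. It had 59.4, 45.9, 44.2, 42.9 and 70.3 scaled counts in the triple mutants and 65.6, 92, 78.9, 86.6 and 78 in the double mutants (log2 fold change -0.62, adjusted p = 0.00515), was under the fold threshold without any 1 of 4 libraries, triple-mutant replicates 7, 8 and 9 and double-mutant replicate 7, and was not called after rescaling or with edgeR or DESeq2. ins-7, an insulin-like ligand, had 4.4, 8.66, 2.46, 0 and 9.37 scaled counts in the triple mutants and 0, 0, 1.16, 0 and 0 in the double mutants, 31 fragments in all in the triple mutants and 1 in the double mutants, a ratio of at least 1.48 against the floor, which missed the threshold over all libraries (log2 fold change 1.95, adjusted p = 0.066). In the larger group it was called (log2 fold change 2.44, adjusted p = 0.0109). Over all libraries edgeR and DESeq2 each called 1 of the 5 insulin-like loci higher, while limma after rescaling called 0. The limma log2 fold change of ins-7 was the largest of the 5.

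daf-28, ins-35 and mtl-1 were among the loci present in one set of libraries and nearly absent from another. daf-28, an insulin-like ligand that opposes dauer arrest, had 50.6, 55.4, 41, 0 and 58.9 scaled counts in the triple mutants and 1.43, 69.3, 46.4, 53.3 and 57.3 in the double mutants, and the groups did not differ beyond their spread (log2 fold change -0.36, adjusted p = 0.923). ins-35 had 1.1, 77.9, 101, 1.23 and 109.8 scaled counts in the triple mutants and 8.56, 369, 405, 377 and 2.96 in the double mutants. The high libraries were those of the larger group in both genotypes, and within it ins-35 was lower in the triple mutants (log2 fold change -1.998, adjusted p = 6.47e-06), while over all libraries it was not called (adjusted p = 0.567). mtl-1, a metallothionein gene and a known target of DAF-16, had 0, 28.6, 6.56, 0 and 6.69 scaled counts in the triple mutants and 0, 49.8, 87, 119 and 0 in the double mutants, which was likewise lower within the larger group (log2 fold change -2.76, adjusted p = 2.43e-05) and not called over all (adjusted p = 0.521). mtl-2 had 86.9, 97.8, 50.8, 67.4 and 64.3 scaled counts in the triple mutants and 101, 103, 99.7, 131 and 90.9 in the double mutants, with a log2 fold change of -0.54 under 1.5-fold (adjusted p = 0.0362).

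The X-linked ins-9 locus had 1 fragment in the triple mutants, 0 in the double mutants and 9 in wild type, and the X-linked akt-2 locus had 2 in the triple mutants and 0 in the double mutants. With an exact two-sided permutation test of 5 against 5 libraries, whose smallest p is 0.00794, p was 1 for ins-9 and 0.444 for akt-2, so no difference was detectable at this depth. ins-4, ins-6 and set-4 were listed at 0 in all 10 libraries. Of the dosage compensation list a single locus was tested. It carries set-1, the gene of the enzyme that monomethylates histone H4, together with mel-32, let-721 and 2 other names, and had 5.5, 2.6, 2.46, 2.45 and 4.02 scaled counts in the triple mutants and 11.4, 8.66, 8.12, 8.56 and 7.9 in the double mutants, without overlap between the groups (log2 fold change -1.21, adjusted p = 0.0106). It was called lower on both scales but not with edgeR (adjusted p = 0.0676), with DESeq2 (adjusted p = 0.101) or in the larger group (adjusted p = 0.0569).

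Another 72 called loci, 11 higher and 61 lower, fell under none of the rules for naming loci. The 6 given here were picked from those called lower, by the known role of a gene and after their values had been seen, so nothing can be read from their number or common direction. F54H12.9/aco-2, with the gene of mitochondrial aconitase, had 20.9, 12.1, 11.5, 11 and 19.4 scaled counts in the triple mutants and 24.3, 41.1, 37.1, 28.5 and 23.7 in the double mutants (log2 fold change -1.01, adjusted p = 0.00169). gdh-1, glutamate dehydrogenase, had 26.4, 21.6, 24.6, 24.5 and 29.5 scaled counts in the triple mutants and 55.7, 58.4, 38.3, 49.5 and 50.4 in the double mutants (log2 fold change -0.96, adjusted p = 0.000375). Both were lower without overlap and were called on both scales. mdh-2, mitochondrial malate dehydrogenase, had 28.6, 24.2, 18, 20.8 and 22.8 scaled counts in the triple mutants and 47.1, 34.6, 42.9, 35.2 and 46.4 in the double mutants (log2 fold change -0.83, adjusted p = 0.00197). cts-1/rde-4, with citrate synthase, had 69.3, 45, 42.6, 51.5 and 63.6 scaled counts in the triple mutants and 97, 94.2, 92.8, 66.6 and 103 in the double mutants (log2 fold change -0.74, adjusted p = 0.00059). vdac-1, a channel of the outer mitochondrial membrane, had 91.4, 82.3, 113, 85.8 and 104 scaled counts in the triple mutants and 183, 158, 158, 116 and 151 in the double mutants (log2 fold change -0.67, adjusted p = 0.000377). These 3 were under the fold threshold after rescaling, with edgeR and with DESeq2. dct-16, a gene named for control by DAF-16, had 69.3, 103, 84.4, 55.1 and 122 scaled counts in the triple mutants and 278, 359, 419.8, 327 and 283 in the double mutants (log2 fold change -1.97, standard error 0.202, adjusted p = 2.34e-08), and the highest library of the triple mutants was far below the lowest of the double mutants. Its mean was 199 ± 42 in wild type (SD, n = 5).

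Compared with wild type, the triple mutants had 38 loci higher (3.45%) and 50 lower (4.54%). On X, 17 of 127 tested loci were higher and 3 lower, with a median log2 fold change of 0.52, beside 9 of 872 higher and 43 lower on the autosomes with a median of -0.18. T23F2.3/T23F2.4 had 70.8 ± 6.49 scaled counts in the triple mutants and 21 ± 3.89 in wild type (log2 fold change 1.72, adjusted p = 1.19e-07), and C18A11.2 had 119 ± 16.9 in the triple mutants and 51.3 ± 6.52 in wild type (log2 fold change 1.20, adjusted p = 0.000264). fipr-10, although higher than in the double mutants, had 8.91 ± 1.61 in the triple mutants and 96.7 ± 17.2 in wild type (log2 fold change -3.30, adjusted p = 6.29e-06). The chemoreceptor gene srw-85 had no fragment in the triple mutants and 13.7 ± 8.72 scaled counts in wild type (log2 fold change -3.30, adjusted p = 4.01e-05). It had no fragment in the double mutants either.

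Removal of DPY-21 and removal of either transcription factor from the double mutants were set side by side, in comparisons that share the 5 libraries of the triple mutants. Versus daf-16;eak-7;akt-1, 29 loci were higher (2.63%) and 39 lower (3.54%) in the triple mutants. On X 11 of 127 tested loci were higher and 2 lower, with a median log2 fold change of 0.42. Of 872 autosomal loci 10 were higher and 34 lower, with a median of -0.24. Versus eak-7;akt-1;daf-12, 20 were higher (1.82%) and 42 lower (3.81%). Here 10 X-linked loci were higher and 1 lower with an X median of 0.29, beside 6 autosomal loci higher and 36 lower with a median of -0.23. T26H5.9/srh-239 had 86.3 ± 14.5 scaled counts in the triple mutants, 11.8 ± 6.04 in daf-16;eak-7;akt-1 (log2 fold change 2.89, adjusted p = 8.09e-05) and 18.5 ± 4.88 in eak-7;akt-1;daf-12 (log2 fold change 2.18, adjusted p = 0.00217). The collagen gene col-73 had 1.3 ± 1.56 in the triple mutants and 7.46 ± 0.879 in daf-16;eak-7;akt-1 (log2 fold change -2.14, adjusted p = 0.000989). Y48G8AL.12/Y48G8AL.16 had 23.8 ± 10.6 in the triple mutants and 181 ± 27.5 in eak-7;akt-1;daf-12 (log2 fold change -2.96, adjusted p = 3.51e-05). F15E6.4 had 1.9 ± 2.21 in the triple mutants and 34.6 ± 4.71 in eak-7;akt-1;daf-12 (log2 fold change -3.92, adjusted p = 7.86e-09), and the X-linked F48D6.4 had 12.9 ± 3.84 in the triple mutants and 109 ± 10.4 in eak-7;akt-1;daf-12 (log2 fold change -3.04, adjusted p = 1.32e-11). In contrast B0310.6 had 38.3 ± 3.39 in the triple mutants, 44.4 ± 15.6 in daf-16;eak-7;akt-1 (log2 fold change -0.14, adjusted p = 0.856) and 40.4 ± 11.5 in eak-7;akt-1;daf-12 (log2 fold change -0.02, adjusted p = 0.986), means that differed by less than their spread.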

How the data were processed

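RNA-seq values of 35 libraries (7 genotypes, 5 replicates each, numbered 6 to 10 in the sample titles) were used. Per the labels, mRNA was selected from 100 ng total RNA and reads were processed with TopHat2 2.0.9, Bowtie2 2.1.0, Cufflinks and Cuffdiff 2.1.1 on WBcel235. The authors deposited a signal for each of 37555 loci and library, a fragment count divided by a size factor, over a reference transcriptome and a de novo assembly. All values above 0 fell on whole multiples of 1 step per library (0.669 to 1.43 scaled counts, within 0.1 step), from which the fragments were recovered. Reads were not analysed here.

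In R 4.3.3, limma 3.58.1 was fitted with a trend to log2(signal + 1) of all 35 libraries together. Calls needed a 1.5-fold change and an adjusted p-value (Benjamini-Hochberg, 1101 loci) below 0.05. The labels do not say that replicates were separate cultures, so p-values measure the spread between these libraries. The floor was 3 fragments per library and covers counting error only, and a fold change against a group at the floor is a lower bound. Genes were placed by name in the WBcel235 annotation, and mitochondrial loci by their MTCE names.

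The members and gene lists were chosen with earlier results of these data known. The text names the 12 largest rises and falls whose 5 same-numbered pairs shared a direction, every called X-linked and mitochondrial locus, up to 4 loci of each list by smallest p-value as far as they add to the counts, and genes the study names. The X-linked and mitochondrial shares were compared with an exact permutation test. Alternatives used edgeR 4.0.16 or DESeq2 1.42.0 with the recovered fragments, median-of-ratios rescaling, other pseudocounts and filters, the larger group of libraries alone, only the compared groups, a replicate block and each library left out. The model was checked on simulated counts.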

Additional observations from a re-analysis of the deposited data

Results flagged for a closer look

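In 14 of 84 groups of 5 libraries, at the called loci with the largest changes and on the X chromosome, the highest or lowest library lay far from the other 4 by Dixon's criterion, which chance meets in about 1 of 20 groups. In 5 of the 14 groups 4 libraries had 0, so that any fragment in the fifth met the criterion and that rate does not apply. In eak-7;akt-1 dpy-21 these were W08D2.11 in replicate 6 (3.30 scaled counts, 0 in the others), col-36 in replicate 10 (0.669), XLOC_007567 in replicate 6 (1.10) and XLOC_007568 in replicate 10 (0.669), where the others also had 0. There were also R03G5.6 in replicate 7 (9.52) and got-1.2 in replicate 9 (18.4).

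In eak-7;akt-1, replicate 7 was the high library for R12E2.14 (6.49 scaled counts), C02E7.6 (15.2), fipr-6 (2.16, 0 in the others) and T23E7.6 (4.33), and the low library for C15H9.9/Y72A10A.1 (0). Replicate 9 was the high library for col-36 (833) and ZK355.8 (64.7), and replicate 8 the low library for got-1.2 (10.4). Left out in turn, none of these libraries ended the call of R12E2.14, C02E7.6, col-36 or ZK355.8.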

How the results depend on the processing

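The X-linked excess kept its sign in every alternative but 1. The X median minus the autosomal median was 0.60, between 0.50 and 0.67 over the alternatives that kept the filter and 0.502 to 0.624 with 1 library left out, and 0 without a filter, for a reason that was not tested. None of the 135 called loci changed direction in any alternative that tested it. Of the 135, 84 were called after rescaling, 80 with edgeR, 86 with DESeq2, 70 in the larger group, 44 without a filter, 92 with only the 2 compared groups and 103 to 122 with 1 library left out, the fewest without replicate 7 of eak-7;akt-1 dpy-21.

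The 135 changed loci became 55 without a filter and 106 to 138 with 1 library left out. The 38 higher loci became 61 with DESeq2, 63 with edgeR, 58 after rescaling, 19 without a filter and 34 to 39 with 1 library left out. The 97 lower loci became 50 with DESeq2, 43 with edgeR, 46 after rescaling, 36 without a filter and 71 to 104 with 1 library left out. The 13 X-linked changes became 8 in the larger group, 8 with only the 2 groups, 2 without a filter and 10 to 15 with 1 library left out. Versus wild type the 88 changes became 39 without a filter, 50 with only the 2 groups and 63 to 88 with 1 library left out. Against daf-16;eak-7;akt-1 the 68 became 30 without a filter, 40 with only the 2 groups and 53 to 84 with 1 library left out, and against eak-7;akt-1;daf-12 the 62 became 37 without a filter and 45 to 70 with 1 library left out.

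Libraries with the same replicate number shared only that number. Their deviations from the group means correlated at 0.51, 0.43, 0.51, -0.48 and -0.58 for replicates 6 to 10, and not every library correlated best with its own number. A fit with a replicate block called 143 loci, 39 higher and 104 lower, 13 of them on X, with 93 versus wild type, 78 against daf-16;eak-7;akt-1 and 71 against eak-7;akt-1;daf-12. Of the 135 it lost pas-6 (adjusted p = 0.0501). Depth limits the rest, because 1101 of the 8710 loci with a fragment could be tested and falls of low genes end at the floor of 3 fragments.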
